A study of Mus musculus with 23 samples.

Results

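MC38 is a colon carcinoma line, and its CAFs were compared here with the CAFs of EO771 breast, LL2 lung and Pan02 pancreatic tumors. The MC38 CAF libraries were chosen by the tumor model in their labels and are 2 of the 8 CAF libraries, in a series of 23 samples. In every group, 500000 cancer cells had been injected under the skin of the flank of female C57BL/6 mice, 10 to 15 weeks old, and tumors were taken at endpoint. CAFs were live cells stained for FAP and sorted from tumor suspensions from which CD45+ cells had been removed, in 2 separate rounds of sorting per model. Each of the other models gave 2 CAF libraries, and whole tumors of MC38, EO771, LL2 and Pan02 gave 3 libraries each, of 15 with B16 tumors. How many mice went into a sort is not stated in the sources used here, so p-values measure the spread between sorts. The MC38 libraries are called library 5 and library 6 after the numbers in their column names, which do not say which labelled replicate each is.

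CAFs are the fibroblasts and related mesenchymal cells of a tumor. They deposit collagen and other matrix, secrete growth factors and chemokines, and are often named myofibroblastic, inflammatory, antigen-presenting or vascular after the genes they express most. FAP is a membrane serine protease found on many activated fibroblasts. Type I interferons switch on antiviral genes through transcription factors that their receptor activates, and interferon gamma raises the genes that cut, transport and display peptides on MHC class I.

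Levels are RPKM, that is read counts scaled to transcript length and library size, and differences are MC38 minus the mean of the 3 other models on log2(RPKM + 1), a scale that understates the change of low genes. Library 5 held 13.2 M counts and library 6 held 9.27 M, fewer than the 16.2 M to 22.8 M of the other CAF libraries, and exons of named genes took 81.0% and 67.2% of them against 82.1% to 88.1% elsewhere. Fibroblast genes were present in both MC38 libraries, with *Col1a1* at 2771 and 467 RPKM in libraries 5 and 6, *Pdgfrb* at 82.3 and 38.2 and *Fap*, the sorted marker, at 11.4 and 4.29. In library 5, 15 of 16 fibroblast genes were above their mean in whole MC38 tumors, while 9 were in library 6, on RPKM scales normalized separately. *Col1a1* in library 6 was below its whole-tumor mean of 804 RPKM. The same count was 14 of 16 or more in the EO771 and LL2 libraries and 4 in both Pan02 libraries. Of 19 leukocyte markers, 4 were at 0 in both MC38 libraries, *Cd8a* and *Ms4a1* among them, *Ptprc* (CD45) was at 0.007 and 0.084 RPKM, and their summed level was 25.2 and 26 RPKM against 2101 in whole MC38 tumors and 14.9 to 240.2 RPKM in the other CAF libraries. Of the 12 tested, *Cd79a* was higher (8.33%) and 4 macrophage genes were lower (33.3%), with 10.9% and 9.87% of all tested genes. The 10 endothelial markers summed to 41.4 and 29.4 RPKM, within the 6.99 to 81.3 of the other libraries.

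Of 13598 genes tested, 1479 were higher in MC38 CAFs, which is 10.9% of them, and 1342 were lower, which is 9.87% (limma, adjusted p under 0.05 and at least 1 log2 unit). The median difference over all tested genes was -0.03. Both MC38 libraries lay above all 6 others for 1321 of the higher genes and below all 6 for 1023 of the lower ones, where 20.3% and 19.8% of all tested genes did so. Against the models singly, 722 genes were higher and 378 lower than in each of the 3. Each MC38 library was nearest to the other, at a Euclidean distance of 63.9 over log2 values, and then to the LL2 libraries, at 110.1 and 112 for library 5 and 114 and 117 for library 6. The plot of levels by library shows the 4 markers of these CAFs and 8 genes of the groups described here.

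**Figure D1:**
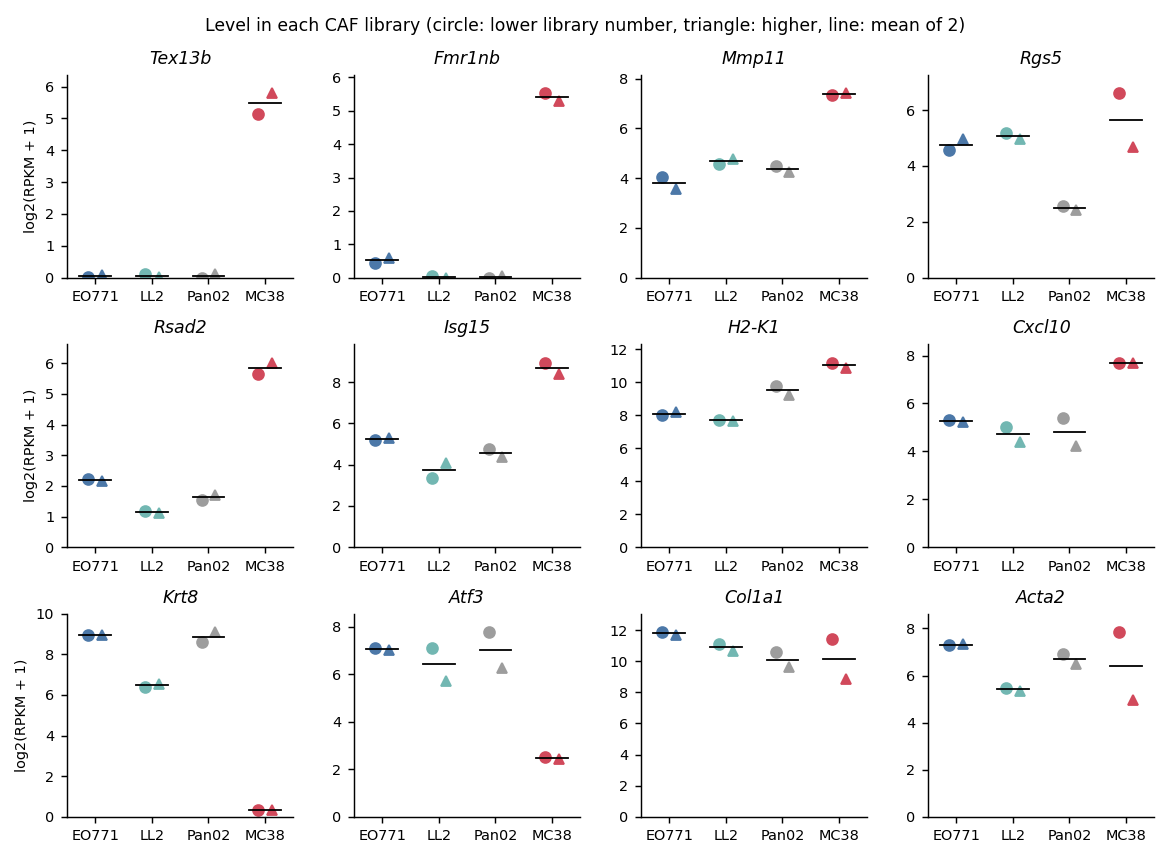
Level of 12 genes in each CAF library as log2(RPKM + 1), with 2 libraries per model (circle, the lower library number; triangle, the higher) and their mean as a line. *Tex13b*, *Fmr1nb*, *Mmp11*, *Rsad2*, *Isg15*, *H2-K1* and *Cxcl10* are higher in both MC38 libraries than in the other 6, *Krt8* and *Atf3* are lower in both, and *Rgs5*, *Col1a1* and *Acta2* differ between the MC38 libraries.

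The 4 markers were picked from earlier results of these libraries, so their values are a description. *Tex13b* (chrX:140808307-140813433, mm10), a testis-expressed gene, was at 34.6 and 54.7 RPKM in MC38 libraries 5 and 6, and at 0.023 and 0.059 in EO771, 0.073 and 0.021 in LL2, and 0 and 0.079 in Pan02. *Fmr1nb* (chrX:68761839-68804560), a cancer-testis antigen gene, was at 45.3 and 38.4 RPKM, and at no more than 0.509 RPKM in any other CAF library. Among the CAF libraries, both genes were thus read almost only in those of MC38. Both also belong to the genes restricted to MC38 among whole tumors, described below. In MC38 tumors, *Tex13b* was at 40.8 and *Fmr1nb* at 59.8 RPKM. The part of cancer cells in their CAF values was not tested. *Mmp11* (chr10:75923222-75932502), which encodes the secreted protease stromelysin-3, was at 163 and 171 RPKM, and at 15.6 and 10.8 in EO771, 23 and 26 in LL2, and 21.5 and 18.1 in Pan02, a log2 difference of 3.11, and it shares 5.58% of its exon bases with *Chchd10*. The MC38 libraries were alike in *Mmp11* and above all 6 others. *Rgs5* (chr1:169655501-169695813), a regulator of G protein signaling used as a pericyte marker, was at 96.6 and 24.6 RPKM, and at 22.8 and 29.8 in EO771, 34.8 and 29.9 in LL2, and 4.89 and 4.33 in Pan02. Only library 5 stood above the rest for *Rgs5*, since library 6 lay among the EO771 and LL2 values, and the gene was not called without library 5.

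Interferon-induced genes were higher in MC38 CAFs almost throughout. Of all tested genes, 10.9% were higher and 9.87% lower. Both MC38 libraries lay above all 6 others for 20.3% of all tested genes, and for 1321 of the 1479 higher ones. Of the 30 genes of a type I interferon list, 28 were higher and none was lower, with a median difference of 2.59, and both MC38 libraries lay above all 6 others for 27 of the 28. The count was 29 without library 5 and 28 without library 6, and 28, 28 and 25 of the 30 were higher against EO771, LL2 and Pan02 CAFs taken singly, with 1 lower against Pan02. Beside the 0 genes called lower by limma, 1 was lower at an unadjusted p under 0.05 and 0 by edgeR on recovered counts. *Ifit2* (-0.74) and *Eif2ak2* (0.83) did not pass both limits.

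Many interferon-induced genes carry an interferon-stimulated response element, a pair of GAAA repeats spaced by 2 bases, near their start. The letters GAAANNGAAA, or TTTCNNTTTC where it lies on the other strand, were sought in RefSeq promoters (GRCm38.p6, 250 bases before to 50 after each start). A promoter was matched for 21 of the 30 genes, and 12 of these (57.1%) held the letters, against 3.85% of 10230 tested genes with a promoter and 3.99% of all 27025. The shares were 7.97% of the genes higher in MC38 CAFs and 3.14% of those lower. The following stretches, with 1 match each in capitals, are those of the 5 genes with the largest differences among list members with a match before the start site. The promoters of *Isg15*, *Oas1a* and *Bst2* held 3, 2 and 2 matches, and further matches in their stretches are not marked. The window searched limited how far from the start a match could lie.
Rsad2, chr12:26456533-26456602, minus strand: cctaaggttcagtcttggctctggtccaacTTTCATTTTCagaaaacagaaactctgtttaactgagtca
Isg15, chr4:156200845-156200914, minus strand: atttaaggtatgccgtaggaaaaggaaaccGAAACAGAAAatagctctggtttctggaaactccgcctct
Oas1a, chr5:120907526-120907569, minus strand: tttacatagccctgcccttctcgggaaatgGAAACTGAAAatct
Oas3, chr5:120777695-120777764, minus strand: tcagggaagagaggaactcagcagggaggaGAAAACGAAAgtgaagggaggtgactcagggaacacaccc
Bst2, chr8:71537557-71537626, minus strand: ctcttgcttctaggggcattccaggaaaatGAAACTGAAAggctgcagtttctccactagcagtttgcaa
The marked match ended 110, 56, 4, 65 and 114 bases before the start site in these 5 promoters, in that order.

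*Rsad2*, which encodes the antiviral enzyme viperin, was at 49.3 and 64.2 RPKM in MC38 libraries 5 and 6, and at 3.65 and 3.44 in EO771, 1.28 and 1.17 in LL2, and 1.94 and 2.24 in Pan02 (log2 difference 4.19, SE 0.13, adjusted p = 3.7e-06). *Isg15*, a ubiquitin-like protein that is attached to others after interferon, was at 492 and 331 RPKM, and at 35.5 and 38.6 in EO771, 9.34 and 15.9 in LL2, and 26 and 19.8 in Pan02 (log2 difference 4.15, SE 0.23, adjusted p = 2.1e-05). For both genes each MC38 library was far above the highest other library. The 2′-5′ oligoadenylate synthetases, which activate RNase L on double-stranded RNA, rose together. *Oas2* was at 109 and 167 RPKM against 2.41 to 7.26 RPKM elsewhere (log2 difference 4.72, SE 0.21, adjusted p = 1.1e-05), *Oas3* at 19.6 and 25 against 1.15 to 2.23, and *Oasl1* at 49.1 and 45.5 against 1.7 to 7.97. *Oas1a* was at 48.3 and 40.7 and *Oas1g* at 49.1 and 34.4 RPKM, against at most 6.69 and 2.19 elsewhere, but these are close copies between which reads could be split. The order of libraries 5 and 6 changed from gene to gene, with no gene of the family near another model's level.

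Other antiviral effectors followed. *Mx1*, a GTPase that traps viral particles, was at 22 and 31.9 RPKM against 0.366 to 1.52 RPKM elsewhere (log2 difference 3.84, SE 0.17, adjusted p = 9.3e-06), and *Ifi44* was at 34.5 and 42.6 against 1.49 to 2.8 (log2 difference 3.77, SE 0.15, adjusted p = 6.8e-06). *Bst2*, which tethers budding virus to the membrane, was at 1090.2 and 790.5 RPKM against 85.5 to 209. *Usp18*, the protease that removes ISG15, was at 57.3 and 45.9 against 3.42 to 7.05 RPKM. Each of these separated the MC38 libraries from all others. Among sensors of viral RNA, *Dhx58* was at 41.7 and 41.8 RPKM against 3.54 to 5.68 (log2 difference 2.94, SE 0.11, adjusted p = 6.2e-06), and *Ddx58* (RIG-I) at 27.4 and 32.9 against 6.09 to 11.9. Among the signaling genes, *Stat2* was at 89.7 and 106 RPKM against 8.83 to 23.4 (log2 difference 2.83, SE 0.18, adjusted p = 3.2e-05), *Irf7* at 168 and 81 against 10.7 to 34.2 and *Irf9* at 32.4 and 39.2 against 10.1 to 22. *Irf7* was 2.07-fold higher in library 5 than in library 6, while the median of the list differed between the MC38 libraries by -0.10.

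The MHC class I pathway was also higher. Shares over all tested genes were 10.9% higher and 9.87% lower, with both MC38 libraries above all others for 20.3%. In a list of 29 genes of the interferon gamma response and MHC class I, 20 were higher and none was lower (median 1.29), and for 14 of the 20 both MC38 libraries lay above all others. Taken singly, 20 were higher than in EO771, 23 than in LL2 and 11 than in Pan02, against which 5 were lower. *H2-K1*, a class I heavy chain, was at 2329 and 1868 RPKM in MC38 libraries 5 and 6, and at 253 and 289.9 in EO771, 212 and 202 in LL2, and 884 and 599 in Pan02 (log2 difference 2.59, SE 0.20, adjusted p = 6.0e-05). *B2m*, the light chain, was at 1622 and 1421 RPKM, and at 698 and 812 in EO771, 437 and 456 in LL2, and 959.9 and 732 in Pan02 (log2 difference 1.21, SE 0.18, adjusted p = 0.0011). Both were above every other library, and reads of *H2-K1* could be shared with other class I genes. *Psmb9*, an immunoproteasome subunit, was at 158 and 123 RPKM against 8.05 to 40.5 (log2 difference 2.77, SE 0.14, adjusted p = 1.6e-05), *Psmb10* at 309 and 206 against 25.8 to 75.2, and *Tap1*, a subunit of the peptide transporter, at 144 and 125 against 12.2 to 50.4. *Nlrc5*, the transactivator of class I genes, was at 15.2 and 21.2 RPKM against 1.55 to 10.2 (log2 difference 2.02, SE 0.15, adjusted p = 5.9e-05).

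The guanylate-binding proteins, GTPases that act on microbes inside cells, overlapped Pan02. *Gbp2* was at 31.8 and 31.2 RPKM in MC38, and at 11.5 and 11.2 in EO771, 11.8 and 11.7 in LL2, and 171 and 95.3 in Pan02, and did not pass the test. *Gbp3*, which was called higher, was at 31.4 and 38.6 RPKM in MC38 and 47.2 and 25.8 in Pan02, and *Gbp5* and *Gbp7* were called higher with the same overlap, *Gbp5* neither without library 6 nor without library 4, of Pan02. *Irf1* (0.32, adjusted p = 0.42) and *Cd274* (0.34, adjusted p = 0.19), the gene of PD-L1, did not pass either. Of the MHC class II genes, *H2-Aa*, *H2-Ab1*, *H2-Eb1* and *Cd74* were lower, while *H2-DMa* (log2 difference 0.85), *H2-DMb1* (0.45) and *Ciita* (-0.70) did not pass the test. *H2-Ab1* was at 5.4 and 2.32 RPKM, and at 26.3 and 41 in EO771, 7.38 and 5.97 in LL2, and 232 and 102 in Pan02 (log2 difference -2.89, SE 0.36, adjusted p = 4.2e-04), and *Cd74*, the class II invariant chain, was at 2.71 and 2.31 RPKM, and at 51.2 and 69.1 in EO771, 1.27 and 1.06 in LL2, and 556 and 246 in Pan02 (log2 difference -3.38, SE 0.28, adjusted p = 8.1e-05). The MC38 libraries were above LL2 in *Cd74*, and below EO771 and Pan02. The leukocyte markers summed to 191 and 240.2 RPKM in EO771 and to 57.5 and 75.2 RPKM in Pan02. The part of leukocyte RNA in this difference was not tested.

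Of 26 chemokine genes tested, 15.4% were higher and 23.1% lower, with 10.9% and 9.87% of all tested genes. *Cxcl10* and *Cxcl11*, ligands of CXCR3 on T cells, and *Ccl5* were higher. *Cxcl10* was at 208 and 204 RPKM in libraries 5 and 6, and at 39 and 36.8 in EO771, 31.5 and 20 in LL2, and 41 and 17.9 in Pan02 (log2 difference 2.76, SE 0.29, adjusted p = 2.2e-04), and *Ccl5* at 20.1 and 30.4 RPKM, and at 3.21 and 3.23 in EO771, 1.47 and 1.71 in LL2, and 1.41 and 1.27 in Pan02 (log2 difference 3.13, SE 0.16, adjusted p = 1.7e-05). For both, the MC38 libraries did not overlap the others. *Cxcl11* was low, at 1.06 and 1.16 RPKM against at most 0.125, shares 41.7% of its exon bases with *Gm2673*, and was not called with quantile normalization or the longest transcript. It passed the filter on low values (at least 1 RPKM in 2 libraries) only through the MC38 libraries and could only be higher. *Ccl2*, a monocyte attractant, was at 234 and 267 RPKM and called higher, but LL2 was at 319 and 277. The neutrophil attractants were lower. *Cxcl2* was at 0.562 and 1.1 RPKM against 3.42 to 151 (log2 difference -3.85, SE 0.40, adjusted p = 1.9e-04), *Cxcl5* at 3.39 and 2.45 against 12 to 94.9 and *Cxcl1* at 30.5 and 53.3 against 25.4 to 260.4. *Cxcl1* overlapped Pan02 and was not called without library 5, and *Cxcl2* and *Cxcl5* lay below all 6. In all, 4 chemokine genes were higher and 6 lower (median -0.43). Of 23 checkpoint and suppressive genes tested, 2 were higher, *Ido2* and *Tnfrsf14*, and 8 lower. *Ido1* and *Ido2* passed the filter only through the MC38 libraries and could not be called lower. Of the other 21, 1 was higher and 8 were lower. Among the lower genes were *Cd276* (B7-H3) at 13.2 and 6.35 RPKM against 30.4 to 46.4 (log2 difference -1.87, SE 0.22, adjusted p = 3.3e-04) and *Ptgs1* (COX-1) at 6.84 and 6.13 against 25.1 to 44 (log2 difference -2.27, SE 0.13, adjusted p = 2.5e-05). The lower count was 11 without library 5 and 5 without library 6, and 1 gene was higher without either.

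**Figure D2:**
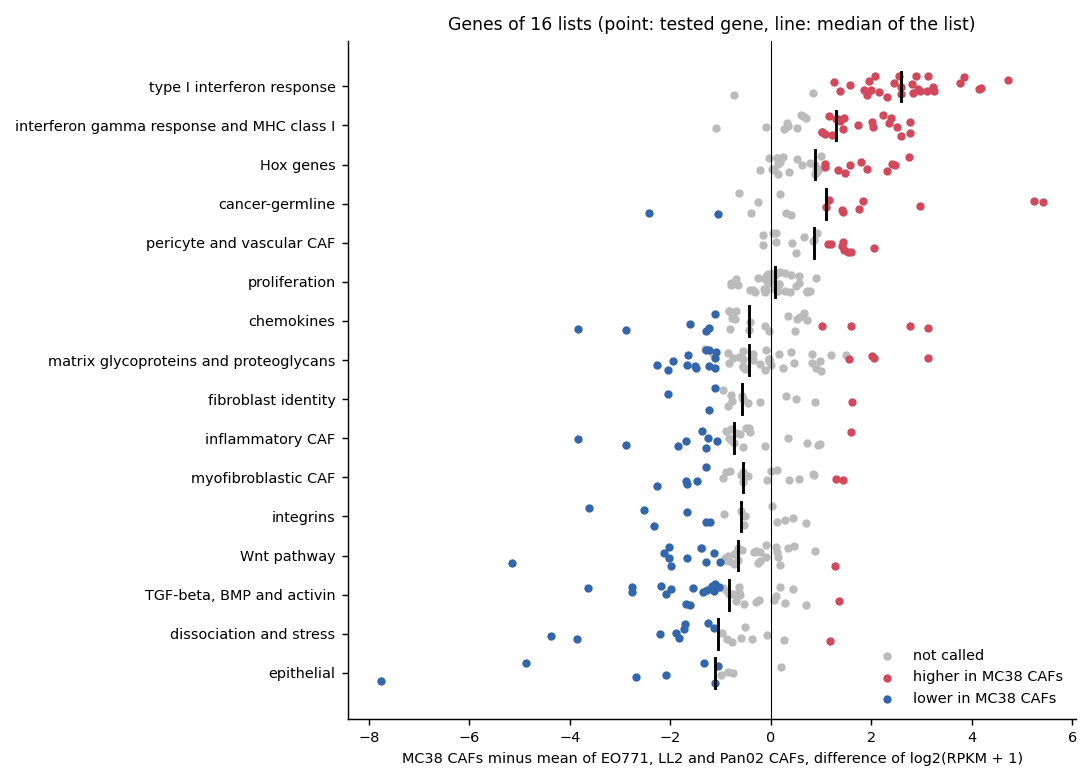
Difference of each tested gene of 16 lists between MC38 CAFs and the mean of EO771, LL2 and Pan02 CAFs, on log2(RPKM + 1), with called genes in color and the median of each list as a line. The medians run from 2.59 for the type I interferon list to -1.12 for the epithelial list, and no gene of the proliferation list was called.

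Genes read in MC38 tumors but not in other tumors were also read in MC38 CAFs. In whole tumors, 26 genes were restricted to MC38, with at least 5 CPM on average in MC38 tumors, at most 1 CPM in every tumor of the other 4 models and at least 4 log2 units above the mean of the other 4 (edgeR, adjusted p under 0.05). All 26 were higher in both MC38 CAF libraries than in the other 6. Their median was 1.72 RPKM in library 5 and 2.93 in library 6, against a median of at most 0.0825 RPKM in any other CAF library, and relative to the mean of whole MC38 tumors the median level was 54.4% and 65.9%, on scales normalized separately. Library 6 was the higher of the MC38 libraries for 23 of the 26. *Fam159b* was at 61 and 58.7 RPKM in libraries 5 and 6, at 0 in all 6 others and at 105 RPKM in MC38 tumors. *Pitx1*, a homeobox gene of the hindlimb and pituitary, was at 27.5 and 22.8 RPKM against at most 1.16 (log2 difference 3.88, SE 0.15, adjusted p = 6.2e-06) and at 20.3 in MC38 tumors. *Nkx2-5*, a homeobox gene of the heart, was at 16.3 and 17.4 RPKM and *Ovol2*, a zinc finger repressor of mesenchymal genes, at 23.5 and 31.9, the latter above its tumor mean of 8.18. *Sox2*, a stem cell factor, was at 2.31 RPKM in library 5 and 6.66 in library 6.

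The same kind of genes of the other models were read in their own CAFs. The 9 genes restricted to EO771 tumors had medians of 1.06 and 1.03 RPKM in EO771 CAFs, the 9 of LL2 tumors 1.06 and 1.1 in LL2 CAFs, and the 43 of Pan02 tumors 4.09 and 4.11 in Pan02 CAFs, which was 72.6% and 73.6%, 40.1% and 41.9%, and 87.6% and 83.6% of the tumor level. Cancer cells lack CD45 as fibroblasts do, and the gate on FAP is the step that would remove them. The authors show representative plots of sorting efficiency, which their text cites for CT26 tumors. How pure the cells of each of these libraries were is not given in the sources used here. Genes of the MC38 cancer cells and of MC38 fibroblasts cannot be told apart in these libraries. The part of such cells in the differences given here was not tested.

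**Figure D3:**
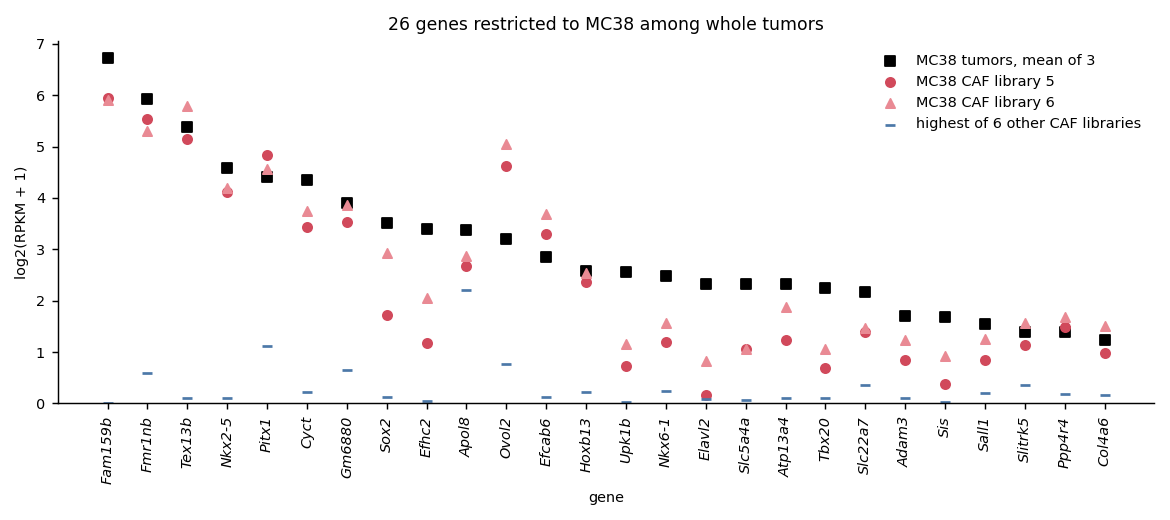
Level, as log2(RPKM + 1), of the 26 genes restricted to MC38 among whole tumors, in MC38 tumors (mean of 3), in MC38 CAF libraries 5 and 6, and as the highest of the 6 other CAF libraries. Every gene is higher in both MC38 CAF libraries than in the others, and library 6 is above library 5 for 23 of the genes.

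Cancer-germline genes, which adult tissues other than testis and ovary mostly keep silent, were among the largest differences. Of 60 such genes on the list, 17 passed the filter on low values, 9 were higher and 2 lower. *Tex13b*, *Fmr1nb*, *Tex101* and *Pramef12* passed only through the MC38 libraries and could only be higher. The first pair, also restricted to MC38 among whole tumors, had been picked as markers from these libraries. Of the other 13, 5 were higher and 2 lower, with 10.9% and 9.87% of all tested genes. No trend of the list is read from these counts. Beside *Tex13b* and *Fmr1nb*, *Xlr3c* was at 11.6 and 15.1 RPKM against 0 to 4.12 (log2 difference 2.96, SE 0.20, adjusted p = 3.9e-05) and *Xlr3a* at 2.98 and 4.45 against 0 to 1.52, but members of this X-linked family are alike enough for reads to be split. *Pramef12* was at 3.82 and 3.78 RPKM against 0 to 1.44 (log2 difference 1.82, SE 0.13, adjusted p = 4.7e-05). *Rhox5* was called higher at 267 and 266 RPKM, yet EO771 was at 314 and 373 and LL2 at 235 and 290.3, so that the call came from Pan02 at 12.3 and 8.39. The lower genes were *Rhox2g*, at 0 and 0.204 RPKM against 20.4 and 24 in LL2, and *Sohlh2*, at 0.032 and 0.092 against 9.22 and 9.62 in EO771. Both overlapped the remaining models, and edgeR on recovered counts called neither, and *Rhox2g* has near copies. Without library 5, 4 of 14 members tested were called higher, and *Dnmt3l* and *Maged2* lost their calls. Without library 6, 6 of 14 were.

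Hox genes, transcription factors that mark position along the body axis, were called in 1 direction. Of 39, 31 passed the filter, 11 were higher and none lower. *Hoxb13*, *Hoxd13* and *Hoxc5* passed only through the MC38 libraries and could only be higher, and of the other 28, 8 were higher, with 10.9% of all tested genes higher. *Hoxb13* and *Hoxd13*, the most posterior genes of their clusters, were at 4.13 and 4.82 and at 4.17 and 5.11 RPKM in libraries 5 and 6 and at no more than 0.162 and 0.071 RPKM elsewhere. *Hoxb13* is also 1 of the 26 genes restricted to MC38 among whole tumors, at 4.99 RPKM in MC38 tumors. *Hoxa9* was at 9.91 and 17 RPKM, and at 1.27 and 1.4 in EO771, 1.34 and 1.11 in LL2, and 0.776 and 0.65 in Pan02 (log2 difference 2.76, SE 0.19, adjusted p = 4.2e-05). *Hoxb6* was at 14.1 and 26.4 RPKM against 1.55 to 5.49 (log2 difference 2.32, SE 0.24, adjusted p = 1.8e-04). Library 6 was the higher for each of these 4 genes, and neither library met the other models. *Hoxa5* (-0.05) and *Hoxa3* (-0.22) were highest in Pan02 and did not pass.

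Of 32 mesenchymal transcription factors tested, 6 were higher (18.8%) and 5 lower (15.6%), with 10.9% and 9.87% of all tested genes. *Gli1*, a target and effector of Hedgehog signaling, was at 29 and 40.4 RPKM, and at 3.08 and 2.96 in EO771, 1.27 and 1.44 in LL2, and 7.07 and 5.29 in Pan02 (log2 difference 3.11, SE 0.16, adjusted p = 1.7e-05). *Osr1*, a factor of embryonic mesenchyme, was at 67.8 and 71.4 RPKM, and at 15.1 and 17.2 in EO771, 14.1 and 17.2 in LL2, and 3.46 and 1.7 in Pan02 (log2 difference 2.83, SE 0.19, adjusted p = 4.0e-05). *Foxf1*, a Hedgehog-dependent factor of gut mesenchyme, was at 24.2 and 38.7 RPKM, close to Pan02 at 28.2 and 18.8 and above EO771 and LL2. The MC38 libraries did not overlap the others for *Gli1* and *Osr1*, and overlapped Pan02 for *Foxf1*. Lower were *Zeb1*, at 3.13 and 2.24 RPKM against 8.5 to 11.9 (log2 difference -1.61, SE 0.13, adjusted p = 7.0e-05), and *Tcf4*, at 10.1 and 7.85 against 17 to 43.2 (log2 difference -1.32, SE 0.16, adjusted p = 3.4e-04). *Prrx1*, *Runx1* and *Osr2* were also lower, the first 2 not without library 6.

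Of 29 genes of hypoxia and glycolysis, 4 were higher (13.8%) and 2 lower (6.9%), shares near the 10.9% and 9.87% of all tested genes. *Car9*, a hypoxia-induced carbonic anhydrase, was at 41.8 and 43.8 RPKM, and at 1.14 and 1.15 in EO771, 2.33 and 2.58 in LL2, and 20.1 and 11.7 in Pan02 (log2 difference 3.14, SE 0.18, adjusted p = 2.5e-05). *Egln3*, a prolyl hydroxylase also induced by hypoxia, was at 10.4 and 16.4 RPKM, and at 59 and 57.4 in EO771, 68.1 and 78.7 in LL2, and 74.4 and 56.5 in Pan02 (log2 difference -2.23, SE 0.18, adjusted p = 7.5e-05). *Car9* lay above and *Egln3* below all 6 others. *Slc16a3*, a lactate exporter, was at 215 and 177 RPKM, level with EO771 at 209 and 235 and far above Pan02 at 5.29 and 3.25. None of 40 proliferation genes was called either way by limma (median 0.07), with 6 higher and 4 lower at an unadjusted p under 0.05 and 0 higher and 0 lower by edgeR on recovered counts.

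The largest fall by the naming rule was that of *Krt8*, a keratin of simple epithelia. It was at 0.274 and 0.241 RPKM in MC38 libraries 5 and 6, and at 492 and 495 in EO771, 84.2 and 90.5 in LL2, and 385 and 545 in Pan02 (log2 difference -7.75, SE 0.14, adjusted p = 3.7e-07). Its partner *Krt18* was at 0.979 and 0.116 RPKM, 0.729 and 1.4 in EO771, 97.2 and 101 in LL2 and 349 and 483 in Pan02. MC38 CAFs overlapped EO771 in *Krt18* and were below every other library in *Krt8*. Of 11 epithelial genes tested, 7 were lower (4 without library 3, of Pan02), 8 against Pan02 and 7 against LL2 but 1 against EO771, and the 14 genes of the list summed to 12.3 and 8.09 RPKM in MC38 and 216.9 to 1190.1 RPKM elsewhere. Shares of the tested epithelial genes were 63.6% lower and 0% higher, with 9.87% and 10.9% of all tested genes. *Epcam* was at 0.203 and 0.342 and *Cdh1* at 0.111 and 0.196 RPKM. In whole MC38 tumors *Krt8* was at 12.5 RPKM. The part of epithelial cancer cells in the other models' CAF libraries was not tested.

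Ligands, receptors and targets of the TGF-beta, BMP and activin families were lower where they changed, with 1 exception. The shares were 42.9% lower and 2.86% higher, with 9.87% and 10.9% of all tested genes. Of 35 tested genes, 15 were lower and 1 higher (median -0.83), 22 lower without library 5 and 12 without library 6. *Bmp7* was at 0.196 and 0.118 RPKM, and at 41 and 42.1 in EO771, 1.07 and 0.933 in LL2, and 29 and 39.9 in Pan02 (log2 difference -3.64, SE 0.14, adjusted p = 6.2e-06). Among the other ligands, *Tgfb1* was at 33.8 and 28 RPKM against 38.9 to 111 (log2 difference -1.12, SE 0.13, adjusted p = 3.5e-04), and *Inhba*, an activin subunit, at 2.69 and 2.08 against 3.43 to 21.6. Both MC38 libraries were below all others for these 3, and *Tgfb1* was not called without library 6. Of the receptors, *Tgfbr2* was at 35 and 10.8 RPKM against 71.3 to 95.3 (log2 difference -1.99, SE 0.35, adjusted p = 0.0022) and *Tgfbr1* at 2.28 and 2.69 against 4.35 to 25. Of the targets, *Id2* was at 4.75 and 3.36 RPKM against 7.41 to 41.9 (log2 difference -2.20, SE 0.20, adjusted p = 1.1e-04) and *Smad7*, an inhibitor the pathway induces, at 6.98 and 8.69 against 12 to 44.9 (log2 difference -1.61, SE 0.25, adjusted p = 0.0012). The higher gene was *Grem1*, a secreted BMP antagonist, at 13.2 RPKM in library 5, with both libraries above LL2 and Pan02 and below EO771 at 32.6 and 22.2.

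In the Wnt pathway, 10 of 37 genes were lower (27.0%) and 1 was higher (2.7%), with 9.87% and 10.9% of all tested genes (median -0.66). Of the 37, 9 were at least 1 log2 unit higher in library 5 than in library 6, and none the other way. *Wnt7b*, a ligand, was at 0.135 and 0.128 RPKM, and at 62.6 and 66.1 in EO771, 16.6 and 16.3 in LL2, and 52.5 and 60.2 in Pan02 (log2 difference -5.15, SE 0.10, adjusted p = 3.7e-07). *Lrp6*, a coreceptor, was at 3.85 and 3.62 RPKM against 9.22 to 12.8 (log2 difference -1.29, SE 0.11, adjusted p = 7.9e-05). Both MC38 libraries lay below all others for these genes. *Notum*, an enzyme that inactivates Wnt ligands, was at 0.83 and 0.457 RPKM, and at 0.241 and 0.187 in EO771, 1.41 and 1.23 in LL2, and 128 and 126 in Pan02, so that the call came from Pan02, and 38.1% of its exon bases are shared with antisense genes. *Dkk2* was called lower through LL2, at 133 and 156 RPKM. The higher gene was *Lef1*, a transcription factor of the pathway, at 1.42 and 2.8 RPKM against 0.057 to 0.878 (log2 difference 1.27, SE 0.21, adjusted p = 0.0016). *Lef1* passed the filter on low values only through the MC38 libraries and could only be higher. Of the 35 members that did not depend on MC38 to pass, none was higher and 10 were lower.

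Integrins, the receptors by which cells hold on to matrix, were lower for 6 of 15 genes (40%) and higher for none. Of all tested genes, 9.87% were lower and 10.9% higher. Of the 15, 5 were at least 1 log2 unit higher in library 5 than in library 6, and none the other way. *Itga3* was at 2.87 and 3.18 RPKM, and at 54.7 and 48.9 in EO771, 19 and 19.6 in LL2, and 118 and 110.3 in Pan02 (log2 difference -3.63, SE 0.10, adjusted p = 2.4e-06). *Itga6*, which pairs as a laminin receptor like *Itga3*, was at 2.73 and 2.71 RPKM, and at 36.6 and 36 in EO771, 19 and 21.1 in LL2, and 11.5 and 11.4 in Pan02 (log2 difference -2.52, SE 0.09, adjusted p = 6.2e-06). *Itgb1*, the most common beta chain, was at 85.4 and 64.8 RPKM against 144 to 230.4 (log2 difference -1.21, SE 0.13, adjusted p = 2.5e-04). The MC38 libraries did not reach the lowest other library in any of these. *Met*, the receptor of hepatocyte growth factor, was at 0.862 and 1.17 RPKM against 6.09 to 15.1 (log2 difference -2.25, SE 0.15, adjusted p = 3.5e-05), while *Hgf*, its ligand, was at 7.6 and 7.56 against 0.753 to 6.41 (log2 difference 1.48, SE 0.12, adjusted p = 8.0e-05), close to LL2 at 6.15 and 6.41.

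Genes of the early stress response, which tissue digestion is known to induce, were lower for 9 of 18 and higher for 1, *Ddit3*, which was not called without library 5. The shares of this list were 50% lower and 5.56% higher, with 9.87% and 10.9% of all tested genes. *Atf3*, a stress-induced transcription factor, was at 4.65 and 4.35 RPKM, and at 136 and 129 in EO771, 137 and 51.4 in LL2, and 217 and 76.4 in Pan02 (log2 difference -4.37, SE 0.44, adjusted p = 1.8e-04). *Hspa1a*, an inducible heat shock protein with a close copy in *Hspa1b*, was at 9.76 and 7.24 RPKM, and at 153 and 142 in EO771, 174 and 90.7 in LL2, and 138 and 127 in Pan02 (log2 difference -3.85, SE 0.23, adjusted p = 2.9e-05). *Nfkbia*, the inhibitor that NF-kappa-B induces, was at 85.8 and 94.5 RPKM against 129 to 580.3 (log2 difference -1.89, SE 0.43, adjusted p = 0.0071). All 3 were below all other libraries, and the libraries within LL2 and within Pan02 were far apart in *Atf3*. *Fos*, *Jun*, *Junb* and *Egr1* did not pass both limits, with *Jun* at 431 and 520.4 RPKM against 471 to 1121. In whole tumors, whose RNA came from tissue fragments, 1 of the 18 was lower and none higher, and *Atf3* differed by -0.46 (edgeR, adjusted p = 0.45). Of all genes tested in tumors, 9.66% were lower and 10.7% higher. The part of handling during sorting was not tested.

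Among other genes with the largest differences by the naming rule, *Tcf15*, a helix-loop-helix factor of somites, was at 30.2 and 33.3 RPKM against at most 1.02 elsewhere, and *Bin2* at 45 and 52.7 against at most 7.81. *Gm867* was at 29.5 and 42.3 RPKM, *C130026I21Rik*, which has near copies in the genome, at 47.2 and 54.3, and *AI662270* at 98.9 and 93.1, against at most 1.03, 6.74 and 22.4 elsewhere. At the other end, *Gchfr*, a regulator of tetrahydrobiopterin synthesis, was at 0.303 and 0 RPKM against 11 to 64.1, *Stra6*, the receptor for retinol-binding protein, at 0.937 and 0.806 against 8.75 to 83.9, and *Nptx1*, a pentraxin known from neurons, at 0.029 and 0 against 7.2 to 50.7. *Mtss1*, which encodes a membrane-bending protein, was at 0.359 and 0.446 RPKM against 6.85 to 70.6, and *Dusp5*, a phosphatase of ERK, at 3.03 and 3.05 against 16.1 to 131. The naming rule required both MC38 libraries to lie outside the range of the other 6. In all of these genes the MC38 libraries were close to each other.

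The MC38 CAF libraries differed from each other in stromal genes. Over the tested genes, 724 (5.32%) were at least 1 log2 unit higher in library 5 and 103 (0.757%) in library 6, with no test, as each is 1 library. Past that limit in either direction were 827 genes for the MC38 pair, 308 for Pan02, 76 for LL2 and 59 for EO771. The 48 matrix glycoprotein and proteoglycan genes were higher in library 5 by a median of 1.83 log2 units, the 21 myofibroblastic genes by 2.05, the 19 pericyte genes by 1.75 and the 16 fibroblast genes by 1.27, against 0.04 over all genes. The interferon list (-0.10), the proliferation list (-0.16) and the Hox list (-0.26) leaned slightly to library 6.

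**Figure D4:**
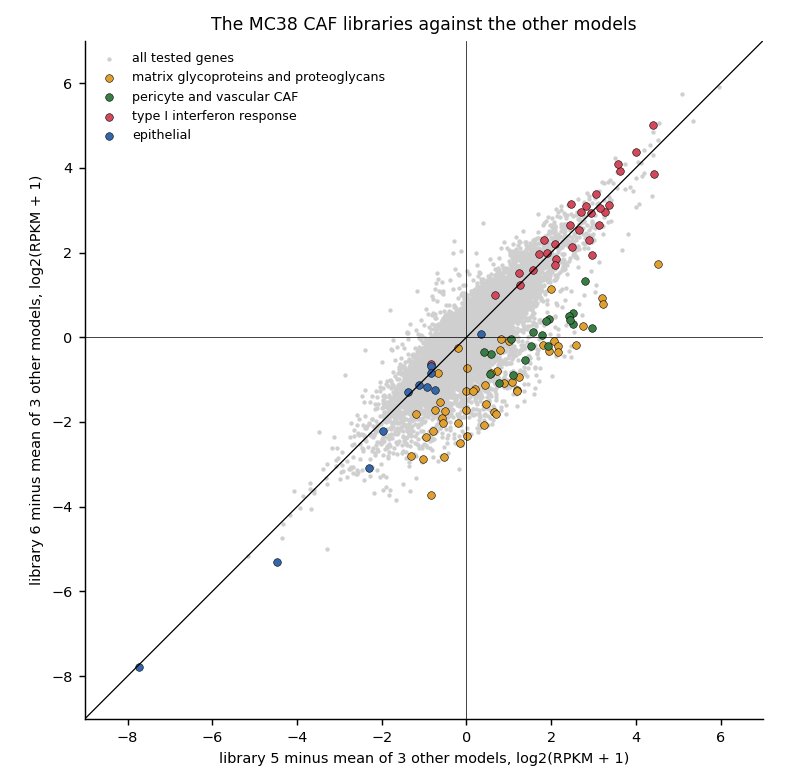
Each tested gene in library 5 (horizontal) and library 6 (vertical) as its difference from the mean of the 3 other models on log2(RPKM + 1), with 4 lists in color and the line of equal values. Most type I interferon and epithelial genes lie near the line, and most matrix and pericyte genes lie below it, higher in library 5.

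The genes with the largest excess in library 5 included contractile and matrix genes. *Acta2*, smooth muscle actin, was at 229 RPKM in library 5 and 30.3 in library 6, with 40 to 159.6 RPKM in the other models in between. *Tagln*, another contractile gene, was at 201 and 25.5 RPKM and overlaps other genes, *Pcsk7* among them, in 67.9% of its exon bases. *Tnc*, tenascin C, was at 89.2 and 11.3 RPKM, against 89.3 to 355 elsewhere. The MC38 libraries lay on either side of the other models for *Acta2*, library 6 lay within them for *Tagln*, and both were below them for *Tnc*, which was not called without library 6. *Thbs4*, a matrix glycoprotein of tendon, was at 442 and 63.2 RPKM against 4.67 to 62.6 (log2 difference 3.12, SE 0.69, adjusted p = 0.0062), and *Cilp* at 190.4 and 27.2 against 16.7 to 49.6. Library 6 was barely above the highest other library for *Thbs4*. *Crip1*, *Rps4l* and *C1qtnf5* complete the 8, and all exon bases of *C1qtnf5* are shared with *Mfrp*. In the other direction, *Fosb* was at 36.3 and 82.2 RPKM and the nuclear exporter *Xpo1* at 13.5 and 31.3, beside *3830403N18Rik*, *Msantd2* and the short RNA genes *Mir7688*, *Snord32a*, *Mir3064* and *Snord69*, of which the last pair lie wholly in exons of *Ddx5* and *Gnl3*.

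Calls on stromal genes therefore moved with the library used. In the pericyte and vascular list, 42.1% of tested genes were higher and 0% lower, with 10.9% and 9.87% of all tested genes. Both MC38 libraries lay above all 6 others for 20.3% of all tested genes. For the pericyte and vascular list, 8 of 19 genes were higher in MC38 CAFs and none lower, 1 without library 5 and 15 without library 6, 4 or 5 without libraries 1 (EO771), 4 (Pan02), 7 or 8 (both LL2), 2 with no filter on low values, and for 1 of the 8 both libraries lay above all 6 others. That gene was *Ndufa4l2*, at 150.4 and 53.8 RPKM, and at 23.4 and 35.2 in EO771, 45.8 and 46 in LL2, and 8.55 and 4.93 in Pan02 (log2 difference 2.06, SE 0.37, adjusted p = 0.0024). *Higd1b* (23.3 and 2.62 RPKM) and *Kcnj8* (22.3 and 4.06 RPKM), both used as pericyte markers, were above the other models in library 5 and within their range in library 6, and lost their calls under 12 and 8 of the 16 alternatives. Against the models singly, 14 of the 19 were higher than in Pan02, 1 than in EO771 and 1 than in LL2.

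Matrix genes were mixed. Of the matrix glycoprotein and proteoglycan list, 8.33% were higher and 27.1% lower, beside 10.9% and 9.87% of all tested genes. Of 48 matrix glycoprotein and proteoglycan genes, 4 were higher and 13 lower, with 2 higher and 28 lower without library 5 and 16 higher and 3 lower without library 6. *Lum*, the collagen-binding proteoglycan lumican, was at 47 and 16 RPKM, and at 72.4 and 73.8 in EO771, 257 and 281 in LL2, and 80.6 and 84.4 in Pan02 (log2 difference -2.05, SE 0.33, adjusted p = 0.0014). *Efemp1*, fibulin-3, was at 38 and 9.92 RPKM against 54.2 to 118 (log2 difference -1.95, SE 0.42, adjusted p = 0.0052). Both MC38 libraries were below all others for these genes. *Igfbp4*, which binds insulin-like growth factors, was called higher at 1594 and 887 RPKM but lay under LL2 at 1738 and 1871. Of 11 fibrillar collagen genes, *Col27a1* was called higher and none lower, 5 lower without library 5, and *Col1a1* (-0.78, adjusted p = 0.31) and *Col3a1* (-0.86, adjusted p = 0.14) spread across the other models. *Col16a1*, a fibril-associated collagen, was at 179 and 141 RPKM against 10.8 to 104 (log2 difference 1.70, SE 0.22, adjusted p = 4.5e-04). *Lama5*, a laminin chain of basement membranes, was at 9.52 and 12.6 RPKM against 20.6 to 51.6 (log2 difference -1.72, SE 0.15, adjusted p = 9.1e-05), and *Agrn*, agrin, was at 65.3 and 79.9 against 15.5 to 37 (log2 difference 1.44, SE 0.15, adjusted p = 1.9e-04).

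Of 14 matrix metalloproteinase genes tested, 2 were higher and 4 lower, 2 and 8 without library 5 and 4 and 4 without library 6. With all libraries, 14.3% of these genes were higher and 28.6% lower, beside 10.9% and 9.87% of all tested genes. Beside *Mmp11*, a marker picked from these libraries, *Mmp9* (gelatinase B) was higher at 19.3 and 20.1 RPKM, but EO771 was at 23.4 and 18.9. *Mmp10* and *Mmp12* were lower, with *Mmp12* at 0.126 and 0.015 RPKM, 34.4 and 43 in LL2 and 0.052 and 0.031 in Pan02. *Timp2*, an inhibitor of these proteases, was at 137 and 88.9 RPKM against 185 to 404 (log2 difference -1.16, SE 0.18, adjusted p = 0.0011), a call that ended without library 6.

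By CAF subtype lists, 8 of 25 inflammatory genes were lower and 1 higher, *Ccl2*, with 16 lower without library 5 and 5 without library 6. Of all tested genes, 9.87% were lower and 10.9% higher. Shares lower were 32% for the inflammatory, 23.8% for the myofibroblastic, 45.5% for the antigen-presenting and 18.8% for the fibroblast list. Shares higher were 4%, 9.52%, 18.2% and 6.25%, in that order. *Il33*, an alarmin cytokine, was at 26.6 and 10.1 RPKM against 34.5 to 69.7 (log2 difference -1.69, SE 0.33, adjusted p = 0.0033), and *Has1*, a hyaluronan synthase, at 7.41 and 2.17 against 7.72 to 56.2. Of 21 myofibroblastic genes, 5 were lower and 2 higher, *Myh11* and *Des*, neither called without library 5, with none higher and 13 lower without library 5 and 8 higher and none lower without library 6, and 2 higher and 1 lower by edgeR on recovered counts. Of 11 antigen-presenting CAF genes, 5 were lower, *H2-Aa*, *H2-Ab1*, *H2-Eb1* and *Cd74* among them, and 2 higher, one of which, *Msln* (mesothelin), was at 35.7 and 31.6 RPKM, above EO771 at 4.08 and 3.41 and LL2 at 1.79 and 2.43 and below Pan02 at 131 and 142. For the fibroblast list, 1 of 16 was higher, *S100a4* at 761 and 542 RPKM against 57 to 445 (log2 difference 1.62, SE 0.19, adjusted p = 3.0e-04) and with 51.7% of its exon bases shared with *Gm42674*, and 3 were lower, but 10 without library 5 and 1 without library 6.

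Whole tumors gave a second readout of the same contrast, in other libraries. In tumors, 1684 of 15722 genes (10.7%) were higher in MC38 and 1518 (9.66%) lower (edgeR, same limits, n = 3 per model). With total-count scaling the split was 2053 higher and 1176 lower, and the median over all genes was 0.13 in place of -0.02. Of the genes higher in MC38 CAFs and tested in tumors, 44.9% (612 of 1363) were higher in MC38 tumors, where 9.3% of genes tested in both were, and 7 were lower. Of those lower in CAFs, 43.7% (579 of 1324) were lower in tumors, where 9.75% were, and 4 were higher. In turn, 49.8% of the genes higher in tumors were higher in CAFs, and 45.0% of those lower were lower. CAFs and cancer cells are both part of a tumor, so the tumor values are not those of other cells alone.

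In tumors, 28 of the 30 type I interferon genes and 22 of the 29 interferon gamma and MHC class I genes were higher in MC38 and none was lower, and all 28 called in CAFs were among those called in tumors. Over all genes tested in tumors, 10.7% were higher and 9.66% lower. *Rsad2* differed by 4.38 in tumors (adjusted p = 6.0e-07) and by 4.19 in CAFs, on 2 different log2 scales. *Mmp11* differed by 1.01 in tumors (adjusted p = 0.011), and *Gli1* by 1.95 (adjusted p = 2.2e-06). All 7 epithelial genes lower in CAFs were lower in tumors too. Proliferation genes, of which none was called in CAFs, were higher for 11 of 40 in tumors, and *Rgs5* differed by -0.08 (adjusted p = 0.86), with none of the 19 pericyte genes higher and 2 lower.

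**Figure D5:**
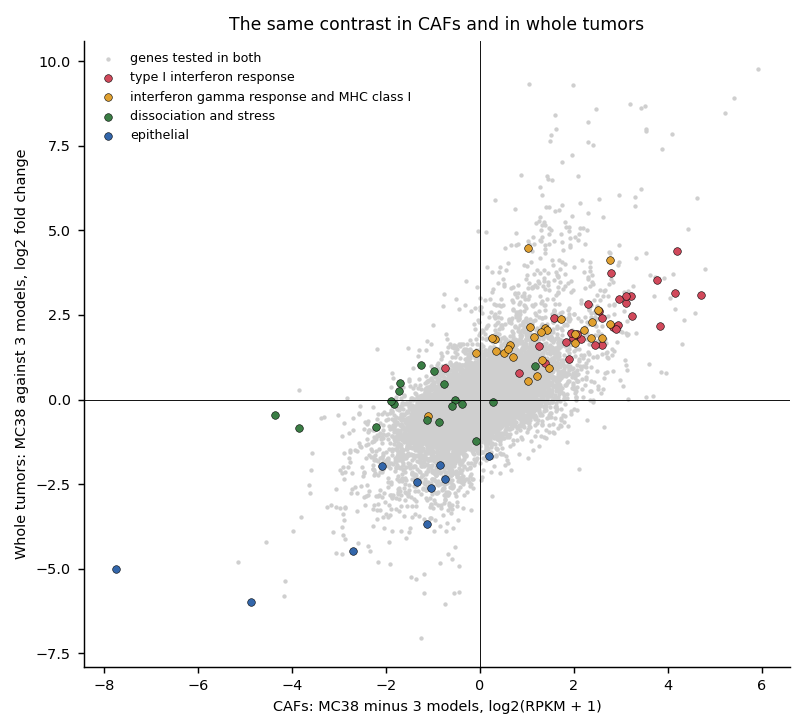
Difference of MC38 from EO771, LL2 and Pan02 in CAFs (horizontal, on log2(RPKM + 1)) and in whole tumors (vertical, edgeR log2 fold change) for each gene tested in both, with 4 lists in color. Most interferon and MHC class I genes lie to the upper right and epithelial genes to the lower left, while *Atf3* and other stress genes are lower in CAFs and near 0 in tumors.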

How the data were processed

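RNA was selected for poly(A) tails and made into unstranded libraries. Per the submitters' notes, the authors aligned reads to mm10 with STAR 2.5.0c and counted them over RefSeq exons with HOMER. For CAFs the authors deposited RPKM per transcript, and for tumors they deposited expected counts in steps of 0.5, not normalized. Of the columns, 5 per-sample ones (CT26) were not used here. For each symbol the transcript highest on average was kept, giving 24940 symbols from 40458 transcripts, of which 2 name no gene. RPKM steps gave whole half-counts for 100% of the low values examined, within 0.1 step, from which depth was recovered. No 2 CAF libraries were identical.

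The main test used limma 3.58.1 on log2(RPKM + 1), with a variance trend and Benjamini-Hochberg adjustment, over the 13598 genes with at least 1 RPKM in 2 libraries, 1 term per model, contrast MC38 against the mean of the 3 other model means. Tumor counts, rounded to whole numbers, were tested over all 15 tumors with edgeR 4.0.16 (TMM, quasi-likelihood) in R 4.3.3, and sums of counts per tumor were 10.0 M to 21.9 M. Tumor RPKM was computed here from the counts. Figures used matplotlib 3.10.9. Scripts were tested on simulated data.

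Genes were named by rule: the 4 markers, the 12 largest rises and falls among called genes with at least 10 RPKM and no overlap, the called members of each list with the smallest adjusted p and those that define a cell type, and the 8 genes with the largest difference each way between the MC38 libraries. Members and lists were chosen with earlier results of these data known. Genes named outside this rule are list members given for context. Exon overlap was taken from GENCODE M21 on both strands. Some list members are not reported here by name.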

Additional observations from a re-analysis of the deposited data

How the results depend on the processing

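Counts of genes higher and lower in MC38 CAFs stayed within 1.5 times of 1479 and 1342 with a pseudocount of 0.1, no filter or a filter of 5 RPKM, median-of-ratios or quantile scaling, no variance trend and the longest transcript. With edgeR on recovered counts, 2563 were higher and 1979 lower, with 20 Hox genes higher in place of 11, 13 pericyte genes in place of 8 and 1 myofibroblastic gene lower in place of 5 (the cause was not tested). With no filter on low values, 2 pericyte genes were higher and 2 myofibroblastic genes lower. At 5 RPKM, where fewer genes are tested, 5 Hox and 5 cancer-germline genes were higher. At an adjusted p alone, 3892 were higher and 4250 lower, and 722 and 378 passed both limits against each of the 3 models. Leaving out 1 CAF library gave 1269 to 1541 higher and 1281 to 1745 lower, the highest count of lower genes without library 5, where 1046 of the higher and 1198 of the lower genes were shared with the full set. A model with 1 library left was assumed to vary like the others. Of 251 named or listed genes called, 188 lost their call under none of the 16 settings (a gene left untested was not counted as lost), 22 lost it without library 5 and 36 without library 6, and no call changed sign.

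Between the MC38 libraries, 1236 genes were higher in library 5 and 392 in library 6 with a pseudocount of 0.1, and 297 and 13 among genes of at least 10 RPKM. Tumor counts stayed within 1.5 times of 1684 and 1518 under DESeq2, total-count scaling, no filter, the 4-model contrast and with each MC38 tumor left out (1517 to 1648 higher, 1199 to 1610 lower). With replicate number as a block in tumors they were 1679 and 1509. Of 30 pairs of same-numbered tumors, 5 had deviations with a correlation over 0.1 (median 0.013, highest 0.25). Pairs with different numbers were not set beside them, so whether the numbers pair the tumors was not tested. No paired analysis was possible because the columns of CAF libraries carry no replicate number, which leaves the tumors alone for a block. Depth limited library 6 most, and genes under 1 RPKM there rest on few reads.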

Other observations

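*Mmp11* and *Gm867*, both among the genes that marked MC38 CAFs, lie on chromosome 10 within a stretch in which other genes were higher too. This stretch was chosen after the values were seen. Of 10 other tested genes within 200 kb on either side of *Mmp11*, 4 were called higher and none lower, where 10.9% of all tested genes were higher, and both MC38 libraries lay above all 6 others for 8 of the 10, where 20.3% of all did. *Mif*, a macrophage migration inhibitory factor, was at 916 and 749.7 RPKM in libraries 5 and 6 against 207 to 465 elsewhere (log2 difference 1.28, SE 0.16, adjusted p = 4.5e-04). *Ddt*, its close relative, was at 57.5 and 46.7 RPKM against 9 to 13.5 (log2 difference 2.11, SE 0.13, adjusted p = 3.0e-05), and *Chchd10*, a mitochondrial protein gene, at 9.79 and 17.8 against 0.192 to 3.83. In whole tumors 3 of the genes were called higher in MC38, *Ddt*, *Mmp11* and *Gm867*, and *Mif* differed by 0.56 (edgeR, adjusted p = 0.011). These neighbors share a position and libraries, and are not independent of each other.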
